A study of Mus musculus with 6 samples.

Results

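The genes described here are 49 regulators and effectors of the cell division cycle, chosen by name and found as 49 of the 55416 genes in the count table. They comprise 8 cyclins and kinases of G1, 4 inhibitors of cyclin-dependent kinases, 5 genes of the E2F and RB families, 13 genes of DNA replication and 19 genes of G2 and mitosis. All 49 passed the filter on low counts, and the lowest count of any of them in any library was 406 reads. Total RNA, depleted of ribosomal RNA, was sequenced with a stranded kit from mouse ganglionic eminences at E13.5. These are the germinal zones of the ventral forebrain. One group of 3 libraries came from a Dlx1/Dlx2 double knockout, and the other 3 came from wildtype littermates. No strain, Cre driver or drug is given in the labels, and they do not say whether a library came from an individual embryo or a pool. The p-values therefore measure only the spread between these libraries. Values given below for wild-type embryos are those of the 3 wild-type libraries. The name of the series links DLX factors and Notch signalling with neural cell fate, and the comparison here asks whether the machinery of cell division differed between the genotypes.

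Cells enter the cycle in G1, when D-type cyclins with Cdk4 or Cdk6 and then E-type cyclins with Cdk2 phosphorylate the RB family and release E2F factors. E2F factors switch on genes for DNA replication in S phase, and a later wave of transcription supplies the kinases, motors and checkpoint proteins of mitosis. Inhibitors of the INK4 and CIP/KIP families oppose the kinases and are used when neural progenitors leave the cycle. In the ganglionic eminences the dividing cells lie in the ventricular and subventricular zones, and Dlx1 and Dlx2 are known for promoting differentiation in the subventricular zone. In a bulk sample, fewer dividing cells and less RNA per dividing cell cannot be told apart.

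The targeted genes followed the labels. Dlx1 was at 439.0 ± 6.12 CPM (reads scaled to library size with trimmed-mean, or TMM, factors, given as mean ± SD, n = 3) in wild-type and 81.6 ± 10.8 CPM in knockout libraries. Dlx2 was at 296.0 ± 16.1 and 8.68 ± 1.99 CPM (SD, n = 3), with no overlap between groups for either gene. Markers of the ganglionic eminences were present in both genotypes, with Nkx2-1 at 128.0 and 193.0 CPM and Gsx2 at 23.5 and 36.6 CPM. Both were called higher in the knockout, with edgeR adjusted p of 0.0322 and 0.0204 and no overlap between groups. Markers of red blood cells, vessels, microglia and meninges had summed levels that overlapped between groups, of 107.4 to 134.3, 170.2 to 201.7, 30.74 to 38.35 and 25.6 to 39.85 CPM in wild-type embryos and 97.56 to 153.5, 184.8 to 215.0, 30.08 to 44.1 and 28.7 to 29.69 CPM in the knockout. No gene of those lists passed the threshold in edgeR, DESeq2 or limma-voom. None had an unadjusted p under 0.05 in edgeR, and in DESeq2 and limma-voom 1 red blood cell gene each did.

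Among the 49 cell cycle genes, a single one, Cdkn1a, passed the threshold, an adjusted p under 0.05 from the quasi-likelihood test of edgeR. It was higher in the knockout. This is 2.04% of the genes, against 2.68% of all 23628 tested genes, 1.34% called higher and 1.34% called lower (317 each). With total count scaling the split over all genes was 390 higher and 256 lower. An unadjusted p under 0.05 was found for 3 of the 49, Cdkn1a, Mcm4 and Mki67, against 13.3% of all tested genes. The groups did not overlap for 4 of the 49, Cdkn1a, Cdk6, Rb1 and Mcm4, against 19.5% of all tested genes. The count at an unadjusted p under 0.05 was 7 of the 49 with total count scaling, with no filter on low counts and with the replicate block, and 1 of the 49 with the Y-linked covariate and in the fits without wild-type replicate 1 or 3. It was 5 without double knockout replicate 1 or 2. A single call is close to the share over all genes and does not set these genes apart. The fitted log2 fold change was above 0 for 46 of the 49 genes, with a median of 0.091, while the median of all tested genes was -0.002. That shift rested largely on a single library, as described below.

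**Figure D1:**
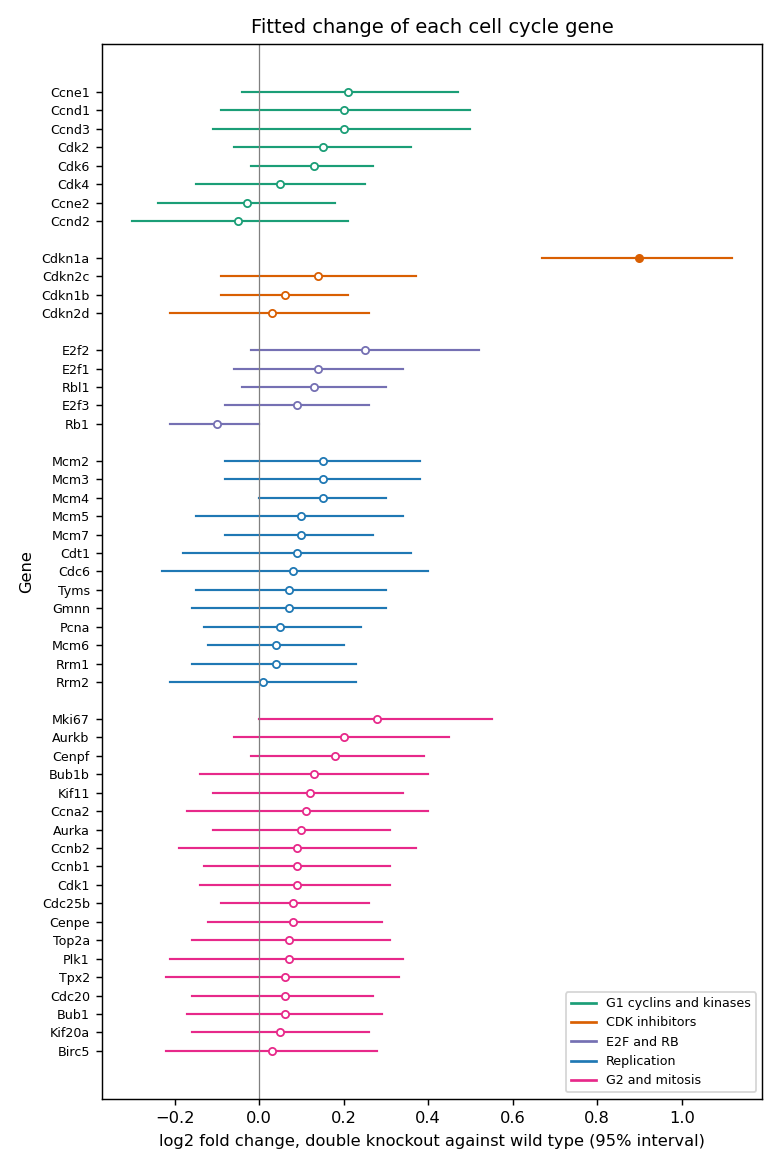
Fitted log2 fold change of each of the 49 genes in the double knockout against the wild type (horizontal axis), with its 95% interval as a line, from edgeR's fit with 3 libraries per genotype. Colours mark the classes and the filled point marks Cdkn1a, the gene past the threshold, at 0.90. The intervals of the other 48 lie between -0.30 and 0.55.

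The gene past the threshold belongs to the inhibitors of cyclin-dependent kinases, a class of 4 with a median log2 fold change of 0.098. Cdkn1a (ENSMUSG00000023067) encodes p21, a CIP/KIP inhibitor of the kinases of G1 and S phase. Its level was 7.099, 6.316 and 7.28 CPM in wild-type replicates 1 to 3 and 11.94, 12.96 and 13.64 CPM in double knockout replicates 1 to 3. Every knockout library was above every wild-type library. The means were 6.90 ± 0.512 and 12.8 ± 0.854 CPM (SD, n = 3), from 406 to 467 and 747 to 946 reads. The log2 fold change was 0.90 (SE 0.0983, 95% interval 0.67 to 1.12), a 1.86-fold difference, at an edgeR adjusted p of 0.00202. The increase passed the threshold in each of the 14 alternative fits, with log2 fold changes from 0.84 to 0.95 and adjusted p up to 0.0134. Per kilobase of exon Cdkn1a had the lowest wild-type level of the 49 genes, 1.94 CPM per kb, and 3.62 CPM per kb in the knockout. Another gene overlaps its exons on the opposite strand in GENCODE M21, and that gene held 0 to 13 reads in each library.

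The other 3 inhibitors did not pass the threshold. Cdkn1b encodes p27, a CIP/KIP inhibitor, and had the highest level per length of the class, 39.2 CPM per kb in the wild type. It was at 175.7, 177.8 and 182.5 CPM in wild-type embryos and 171.7, 183.4 and 203.2 CPM in the knockout. The groups overlapped, and the interval of the log2 fold change ran from -0.09 to 0.21. Cdkn2c and Cdkn2d encode the INK4 inhibitors p18 and p19, which bind Cdk4 and Cdk6. Cdkn2c was at 16.9 ± 1.23 and 18.6 ± 2.03 CPM (SD, n = 3), and Cdkn2d at 16.6 ± 1.13 and 16.9 ± 1.98 CPM. Their intervals ran from -0.09 to 0.37 and from -0.21 to 0.26.

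Cdkn1a has 2 start sites in the RefSeq promoter table. The upstream one is shown because its window, 250 bases before to 50 after the start, at chr17:29090729-29091028 on the plus strand of GRCm38.p6, holds the letters ACATGTC on both strands in close succession. These letters, in capitals here, are part of a half-site of p53, the stress-response factor for which Cdkn1a is the best known target. Other forms of the half-site were not searched for.
Cdkn1a: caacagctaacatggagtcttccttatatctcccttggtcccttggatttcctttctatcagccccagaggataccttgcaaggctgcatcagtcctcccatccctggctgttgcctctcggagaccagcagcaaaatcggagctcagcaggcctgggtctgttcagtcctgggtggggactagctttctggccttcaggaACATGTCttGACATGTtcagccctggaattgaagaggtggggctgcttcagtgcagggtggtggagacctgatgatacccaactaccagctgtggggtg
Matches on either strand that lay within 20 bases were counted as a pair, also where they overlapped in a single stretch. Such a pair was found in the windows of 85 of 27025 genes in the table (0.315%). The spaced arrangement shown for Cdkn1a was not counted apart. Of the 39 cell cycle genes with an entry 1, Cdkn1a, held a pair. The letters were chosen after they were seen, so its match was fixed in advance and carries no weight as a test. The counts per gene do not show which start was used. The p53 gene itself, Trp53, was at 69.3 ± 4.38 CPM in wild-type embryos and 75.3 ± 10.9 CPM in the knockout (SD, n = 3), with an adjusted p of 0.706 in edgeR. Mdm2, Ccng1 and Btg2 are also well-known p53 targets. Mdm2 was at 80.5 ± 1.24 and 77.8 ± 2.04 CPM, with an interval of the log2 fold change from -0.15 to 0.05. Ccng1 was at 34.1 ± 0.211 and 34.1 ± 1.19 CPM, with an interval from -0.13 to 0.13. Btg2 was higher in the knockout, at 138.0 ± 10.3 against 72.7 ± 4.17 CPM. A part of p53 in these levels was not tested.

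None of the 8 G1 cyclins and kinases passed the threshold in edgeR, DESeq2 or limma-voom, and none had an unadjusted p under 0.05 in any of them. Their adjusted p ranged from 0.442 to 0.929 in edgeR. Their median log2 fold change was 0.139. Ccnd2, the D-type cyclin gene with the highest level per length (108.0 CPM per kb in the wild type), was at 1011.0, 1020.0 and 1029.0 CPM in wild-type replicates 1 to 3. In double knockout replicates 1 to 3 it was at 907.7, 867.2 and 1187.0 CPM. The first 2 knockout libraries were thus below all wild-type libraries and the third was above them, and the log2 fold change was -0.05 (95% interval -0.30 to 0.21). It was 0.010 without double knockout replicate 1, 0.038 without replicate 2 and -0.195 without replicate 3, the last at an edgeR adjusted p of 0.138. Exons of 15 of the 49 genes, among them 7 of these 8 with Ccnd2 included, overlap a gene on the opposite strand, so their counts are uncertain if strand was ignored in counting.

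Ccnd1, the D-type cyclin that mitogens induce, was at 118.2, 152.7 and 154.0 CPM in wild-type embryos and 145.1, 151.4 and 193.1 CPM in the knockout. Ccnd3 was at 24.4 ± 1.71 and 28.0 ± 5.59 CPM (SD, n = 3). Ccne1 encodes an E-type cyclin and was at 11.5 ± 0.957 and 13.4 ± 1.65 CPM. The log2 fold changes of Ccnd1, Ccnd3 and Ccne1 were 0.20, 0.20 and 0.21, and their intervals all included 0. Ccne2 was at 32.9 ± 0.609 and 32.1 ± 4.23 CPM.

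Among the kinases, Cdk4 had the highest level per length of all 49 genes, 137.0 CPM per kb in the wild type. It was at 445.0 ± 17.8 and 460.0 ± 58.6 CPM (SD, n = 3). Cdk6, its close relative, was at 101.8, 103.1 and 91.22 CPM in wild-type embryos and 105.8, 114.2 and 103.6 CPM in the knockout. All knockout libraries were above all wild-type libraries for Cdk6, by an estimated 0.13 on the log2 scale (SE 0.0627), at an edgeR adjusted p of 0.442. Cdk2, the partner of E-type cyclins, was at 36.0 ± 1.93 and 40.0 ± 5.12 CPM.

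The E2F and RB genes gave 0 of 5 past the threshold in edgeR, DESeq2 and limma-voom, with a median log2 fold change of 0.128. An unadjusted p under 0.05 was found for 0, 1 and 0 of them. Rb1, the retinoblastoma gene that holds E2F factors in check, was at 127.9, 124.7 and 134.4 CPM in wild-type embryos and 119.4, 122.8 and 117.7 CPM in the knockout. It was the member with the most negative estimate, and the groups did not overlap. The difference was -0.10 on the log2 scale (SE 0.0471), at an edgeR adjusted p of 0.391. Rbl1, which encodes the RB relative p107, was at 62.9 ± 3.01 and 68.8 ± 6.66 CPM (SD, n = 3). The activator genes E2f1, E2f2 and E2f3 were at 32.3 ± 2.30, 27.5 ± 1.94 and 58.8 ± 3.03 CPM in wild-type embryos and 35.6 ± 3.72, 32.7 ± 5.62 and 62.7 ± 5.56 CPM in the knockout. E2f2 had the largest estimate of the class, 0.25, with an interval from -0.02 to 0.52.

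Replication genes are E2F targets, and mitotic genes are typically switched on through a CHR element with nearby CCAAT boxes. Promoters of Mcm6 and Cdk1 are shown as examples of these arrangements. Mcm6 lies at chr1:128359656-128359955 and Cdk1 at chr10:69352863-69353162, both on the minus strand of GRCm38.p6, 250 bases before to 50 after the start. Capitals mark E2F letters (TTTCGCGC, TTTGGCGC, TTCCCGCC or TTCGCGCC), CHR letters (TTTGAA or TTCGAA) and CCAAT boxes, each on either strand. The E2F letters overlap each other.
Mcm6: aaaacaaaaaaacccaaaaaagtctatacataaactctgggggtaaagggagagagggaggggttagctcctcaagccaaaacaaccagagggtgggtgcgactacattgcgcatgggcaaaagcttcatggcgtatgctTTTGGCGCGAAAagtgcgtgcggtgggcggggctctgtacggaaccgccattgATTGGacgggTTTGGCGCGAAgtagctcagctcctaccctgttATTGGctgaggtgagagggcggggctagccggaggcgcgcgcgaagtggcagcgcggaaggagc
Cdk1: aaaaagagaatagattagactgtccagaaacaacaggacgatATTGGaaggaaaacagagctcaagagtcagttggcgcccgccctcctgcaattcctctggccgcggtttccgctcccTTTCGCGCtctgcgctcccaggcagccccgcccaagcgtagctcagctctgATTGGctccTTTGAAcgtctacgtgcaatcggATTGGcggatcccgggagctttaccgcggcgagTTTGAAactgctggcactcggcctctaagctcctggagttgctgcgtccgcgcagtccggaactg
E2F letters were found for 6 of 11 replication genes and 3 of 4 E2F and RB genes with an entry, but for 1 of 15 mitotic genes, Cdk1, against 3.80% of all genes in the table. CHR letters were found for 12 of 15 mitotic genes (80.0%) and 2 of 11 replication genes (18.2%), against 21.7% of all genes. All 12 mitotic genes with CHR letters also held CCAAT. With or without CHR letters, CCAAT was in 93.3% of the mitotic and 72.7% of the replication genes, against 41.1% of all. None of the 5 G1 genes with an entry held E2F or CHR letters. The 2 classes thus differed in promoter letters, and the next paragraphs give their RNA levels. A match of letters does not show a bound site. Aurkb, Ccna2, Ccnd1, Ccnd2, Ccne2, Gmnn, Kif20a, Mcm4, Rb1 and Tpx2 have no entry.

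None of the 13 replication genes passed the threshold in edgeR, DESeq2 or limma-voom. An unadjusted p under 0.05 was found for 1, 0 and 0 of them, and the median log2 fold change was 0.085. The 6 genes of the MCM helicase, which is loaded onto origins in G1 and unwinds DNA in S phase, had estimates from 0.04 for Mcm6 to 0.15 for Mcm2, Mcm3 and Mcm4. Mcm4 was at 93.13, 98.43 and 93.84 CPM in wild-type embryos and 99.53, 101.4 and 116.3 CPM in the knockout. The groups did not overlap, with an unadjusted p of 0.0466 and an adjusted p of 0.365 in edgeR. Mcm2 was at 143.0 ± 10.1 and 159.0 ± 23.6 CPM, and Mcm3 at 96.5 ± 6.05 and 107.0 ± 16.3 CPM (SD, n = 3).

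The licensing factors that load the helicase, Cdc6 and Cdt1, were at 25.5 ± 3.05 and 30.4 ± 3.91 CPM in wild-type embryos and 27.1 ± 4.83 and 32.4 ± 4.29 CPM in the knockout (SD, n = 3). Gmnn, which encodes the inhibitor of Cdt1, was at 14.7 ± 1.03 and 15.4 ± 1.66 CPM. Pcna, the sliding clamp of the polymerases, was at 122.0 ± 3.18 and 127.0 ± 15.8 CPM. Tyms, Rrm1 and Rrm2 supply deoxynucleotides. Rrm1 was at 232.9, 262.4 and 250 CPM in wild-type embryos and at 237.6, 237.8 and 289.7 CPM in the knockout, where the first 2 libraries lay within the wild-type range. The log2 fold changes of Tyms, Rrm1 and Rrm2 were 0.07, 0.04 and 0.01. All 13 intervals lay within a 1.5-fold difference in either direction.

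None of the 19 genes of G2 and mitosis passed the threshold in edgeR, DESeq2 or limma-voom. An unadjusted p under 0.05 was found for 1 of them with each tool, and the edgeR median log2 fold change was 0.086. Mki67, which encodes the proliferation antigen Ki-67, had the largest estimate, 0.28 (SE 0.121, 95% interval 0.00 to 0.55), with an unadjusted p of 0.0491 and an adjusted p of 0.373 in edgeR. It was at 481.5, 580.0 and 581.3 CPM in wild-type embryos and 634.0, 573.3 and 782.6 CPM in the knockout. Double knockout replicate 2 lay among the wild-type libraries. Top2a, the topoisomerase of dividing cells and the gene of the class with the highest level per length (72.1 CPM per kb in the wild type), was at 601.1, 685.3 and 661.7 CPM in wild-type embryos and 632.8, 617.1 and 797.7 CPM in the knockout. Its log2 fold change was 0.07, and -0.049 without double knockout replicate 3.

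The cyclins and kinase that drive entry into mitosis, Ccna2, Ccnb1, Ccnb2 and Cdk1, had log2 fold changes of 0.11, 0.09, 0.09 and 0.09. Cdc25b, the phosphatase that activates Cdk1, was at 49.2 ± 3.56 and 52.1 ± 4.17 CPM (SD, n = 3). Among the mitotic kinases, Aurkb, the kinase of the chromosomal passenger complex, was at 39.06, 43.61 and 40.43 CPM in wild-type embryos and 42.21, 42.70 and 56.22 CPM in the knockout. Its log2 fold change was 0.20 (interval -0.06 to 0.45), and those of Aurka and Plk1 were 0.10 and 0.07. Birc5, which encodes survivin of the same complex, had the lowest estimate of the class, at 32.9 ± 1.88 and 33.6 ± 5.42 CPM.

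Spindle and kinetochore genes had estimates between 0.05 and 0.18. Cenpf, a kinetochore gene, was at 197.9, 245.5 and 228.3 CPM in wild-type embryos and 241.3, 241.1 and 279.7 CPM in the knockout, with a log2 fold change of 0.18 (interval -0.02 to 0.39). The kinetochore motor gene Cenpe had an estimate of 0.08. The spindle genes Kif11, Kif20a and Tpx2 had estimates of 0.12, 0.05 and 0.06. Bub1 and Bub1b of the spindle checkpoint had 0.06 and 0.13, and Cdc20, the activator of the anaphase-promoting complex, had 0.06. All 19 intervals lay within a 1.5-fold difference in either direction.

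Over all 48 genes other than Cdkn1a, the intervals ran from -0.30 to 0.55 on the log2 scale. All 48 lay within a 1.5-fold difference in either direction, and 27 lay within a 1.25-fold difference. The other 21 reached beyond a 1.25-fold difference on at least 1 side.

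The knockout libraries differed among themselves in the level of most of these genes. Double knockout replicate 3 held the highest level of 47 of the 49 genes, against 22.3% of all tested genes. The exceptions were Cdk6 and Rb1. Wild-type replicate 1 held the lowest level of 33 of the 49, against 17.1% of all tested genes. Relative to the wild-type mean, the median log2 level of the 49 genes was -0.097, 0.072 and 0.031 in wild-type replicates 1 to 3. It was -0.043, 0.012 and 0.291 in double knockout replicates 1 to 3. The first 2 knockout libraries thus lay inside the range of the wild type, and the third lay above it. All tested genes had medians between -0.009 and 0.006 in every library on the same scale. The coefficient of variation was larger in the knockout than in the wild type for 45 of the 49 genes, with medians of 13.3% and 6.89%.

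**Figure D2:**
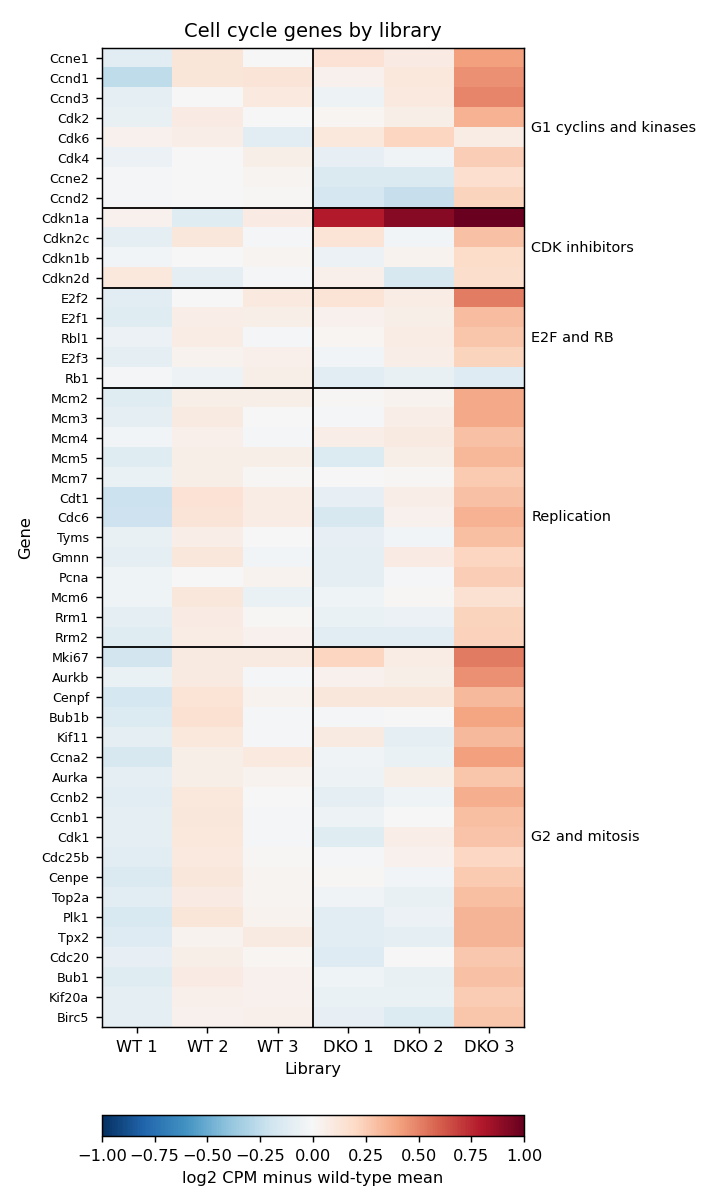
Level of each of the 49 genes in each library, as log2 CPM minus the mean of the 3 wild-type (WT) libraries, in colour from -1 (blue) to 1 (red). DKO is the double knockout, and black lines separate the classes. Cdkn1a is high in all 3 DKO libraries, and 47 of the 49 genes are at their highest in DKO replicate 3.

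Without double knockout replicate 3, 21 of the 49 log2 fold changes were above 0 and 28 below, with a median of -0.009 in place of 0.091. The median was -0.021 for the mitotic genes and -0.012 for the replication genes in that fit, so the direction of both turned. For G1 cyclins and kinases, inhibitors, and E2F and RB genes it stayed above 0, at 0.038, 0.030 and 0.053. Without wild-type replicate 1, the median over the 49 genes was 0.040 and 39 were above 0. Cdkn1a was the gene past the threshold in both fits.

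Replication and mitotic genes had similar medians in most libraries. The median of the 13 replication genes was -0.092, 0.072 and 0.011 in the wild type and -0.078, 0.038 and 0.291 in the knockout. That of the 19 mitotic genes was -0.112, 0.089 and 0.031 in the wild type and -0.045, -0.030 and 0.299 in the knockout. The mitotic median minus the replication median was -0.020 to 0.020 in the wild type and 0.033, -0.067 and 0.008 in double knockout replicates 1 to 3. In double knockout replicate 2 the medians had opposite signs. The G1 and the E2F and RB classes reached 0.298 and 0.280 in double knockout replicate 3, and the inhibitors reached 0.238.

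**Figure D3:**
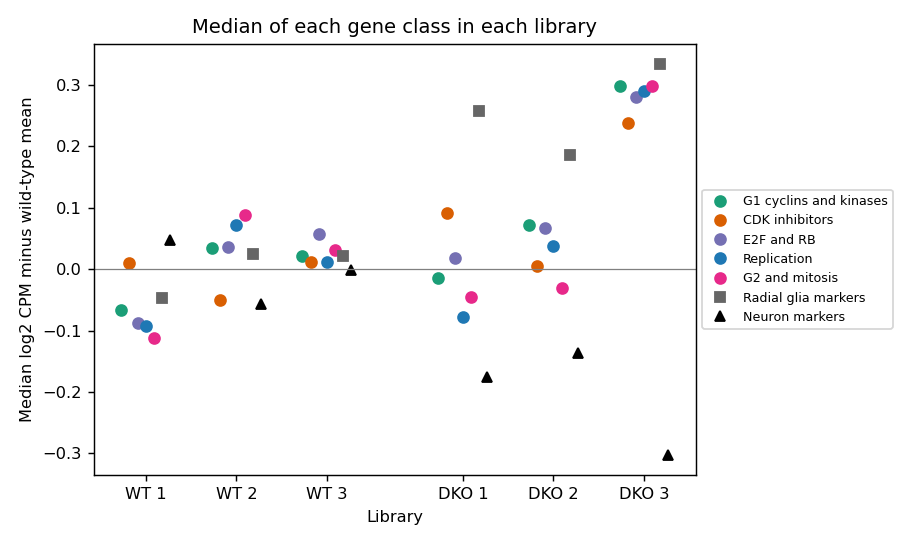
Median over the genes of each class of log2 CPM minus the wild-type mean (vertical axis), 1 point per class in each of the 6 libraries. Circles are the cell cycle classes, squares the 11 markers of radial glia and triangles the 12 markers of neurons. The cell cycle classes lie between 0.238 and 0.299 in double knockout (DKO) replicate 3, where the neuron median is -0.303.

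Markers of other cell states differed between the same libraries. The median of the 11 radial glia and progenitor markers, such as Nes, Sox2 and Vim, was between -0.047 and 0.025 in the wild type and 0.257, 0.186 and 0.335 in the knockout. In edgeR 2 of the 11, Hes5 and Sox1, were called higher and none lower, against 1.34% of all tested genes in either direction, and DESeq2 called 3 higher. The median of the 12 neuron markers was between -0.056 and 0.048 in the wild type and -0.176, -0.137 and -0.303 in the knockout. In edgeR 2 of the 12, Elavl3 and Snap25, were called lower and none higher, and DESeq2 and limma-voom called 4 lower each. Double knockout replicate 3, in which the cell cycle genes were highest, thus also had the highest progenitor median and the lowest neuron median. Both marker medians lay outside the wild-type range in all 3 knockout libraries, while the replication and mitotic medians did so in 1 of them. The other cell cycle classes also left that range outside double knockout replicate 3. In double knockout replicate 2 the G1 median was 0.072, above the wild-type maximum of 0.034. The E2F and RB median there was 0.067, above 0.057. The inhibitor median was 0.092 in double knockout replicate 1, above 0.011. The summed levels of the neuron list were 6434.0 to 6938.0 CPM in wild-type embryos and 5279.0 to 6097.0 CPM in the knockout, and those of the progenitor list were 2021.0 to 2178.0 and 2430.0 to 2648.0 CPM. The list named cortical excitatory held Neurod2, Neurod6, Tbr1, Eomes, Slc17a6, Slc17a7, Bcl11b, Fezf2 and Emx1. In edgeR, oligodendrocyte precursor markers were called higher for 5 of 6 (summed 77.09 to 78.67 and 143.2 to 185.5 CPM). Genes of the list named cortical excitatory were called lower for 2 of 9 (1693.0 to 1731.0 and 1242.0 to 1317.0 CPM). The cells that held these RNAs were not identified. DESeq2 called 5 of 6 higher and 6 of 9 lower. The part of these shifts in the levels of the cell cycle genes was not tested. Wild-type replicate 1 had medians of 0.472 for meninges, 0.186 for microglia, 0.159 for red blood cell and 0.102 for vessel markers. The meninges medians of wild-type replicates 2 and 3 were -0.046 and -0.393. In double knockout replicate 3 the same lists were at -0.071, 0.37, 0.23 and 0.199. A part of these differences in the cell cycle levels was not tested either. Double knockout replicate 3 was also the deepest library, with 70114173 reads. Summed Y-linked genes were above 200 CPM in wild-type replicate 1 and in double knockout replicates 2 and 3, so the libraries lowest and highest in cell cycle genes both carried them.

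Wider lists of replication and mitotic genes, chosen by function, held few differences. Of 47 other replication genes, such as subunits of the polymerases, the origin recognition complex and the clamp loader, none was called in edgeR, DESeq2 or limma-voom, and 1 had an unadjusted p under 0.05 with each tool. Their median log2 fold change was 0.060, with a range from -0.13 to 0.26. Of 56 other mitotic genes, none was called in edgeR or limma-voom, with an unadjusted p under 0.05 for 2 and 1 of them. DESeq2 called 1, Bub3, with an unadjusted p under 0.05 for 3. Their median was 0.085 and their range -0.10 to 0.27. The upper end was Bub3, a spindle checkpoint gene, at 84.7 ± 3.81 and 102.0 ± 9.99 CPM (SD, n = 3), with an adjusted p of 0.111 in edgeR. Double knockout replicate 3 was the highest library for 37 of the 47 and 55 of the 56.

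Of 24 other regulators of G1, 22 passed the filter on low counts, and 2 of those (9.09%) were called in edgeR, against 2.68% of all tested genes. Cdkn1c encodes p57, the third CIP/KIP inhibitor. It was at 50.53, 58.19 and 65.44 CPM in wild-type embryos and 84.24, 101.7 and 80.43 CPM in the knockout, with no overlap. It differed by 0.61 on the log2 scale (SE 0.111), at an edgeR adjusted p of 0.0250. The call was lost in 5 of 14 alternative fits, in which its adjusted p ranged up to 0.101. It was lost without wild-type replicate 1 or 2, without double knockout replicate 1 or 2, and with the Y-linked covariate, at log2 fold changes from 0.50 to 0.65. Unlike the replication and mitotic genes, Cdkn1c was not at its highest in double knockout replicate 3.

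Myc, the growth-promoting transcription factor gene, was lower. It was at 27.13, 24.19 and 25.50 CPM in wild-type embryos and 13.68, 15.66 and 14.68 CPM in the knockout, without overlap. It differed by -0.80 on the log2 scale (SE 0.0819), at an edgeR adjusted p of 0.00142, and the decrease passed the threshold in each of the 14 alternative fits. Its paralogue Mycn, at 23.3 CPM per kb in the wild type against 9.43 CPM per kb for Myc, was at 79.66, 74.97 and 75.74 CPM in wild-type embryos and 64.22, 67.94 and 75.97 CPM in the knockout. The groups overlapped for Mycn, and its adjusted p was 0.403 in edgeR. The INK4 locus genes Cdkn2a and Cdkn2b did not pass the filter.

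Of 12 genes that act in cell cycle exit and early neurogenesis, 4 were called higher and 2 lower in edgeR, against 1.34% of all tested genes in either direction, and DESeq2 called 5 higher and 2 lower. Gadd45g, a growth-arrest gene, was at 21.38, 26.82 and 24.21 CPM in wild-type embryos and 43.18, 44.96 and 54.93 CPM in the knockout. The estimate of 0.98 on the log2 scale (SE 0.113) had an edgeR adjusted p of 0.00255. Btg2, an antiproliferative gene that marks neurogenic divisions, rose from 72.7 ± 4.17 to 138.0 ± 10.3 CPM (SD, n = 3), by 0.92 on the log2 scale (SE 0.0674), at an edgeR adjusted p of 2.43e-04. Hes6, a bHLH gene of committed neural precursors, rose from 60.7 ± 3.71 to 101.0 ± 3.67 CPM, a log2 fold change of 0.73. The increases of Gadd45g, Btg2 and Hes6 passed the threshold in all 14 alternative fits.

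Insm1, a zinc finger gene of intermediate progenitors, rose from 120 ± 0.488 to 178.0 ± 27.2 CPM (SD, n = 3), a log2 fold change of 0.57. Its call was lost in 4 alternative fits, with the Y-linked covariate and when wild-type replicate 1, 2 or 3 was left out in turn, at edgeR adjusted p up to 0.0799 and log2 fold changes from 0.54 to 0.57. Btg1, the relative of Btg2, fell from 132.0 ± 5.73 to 107.0 ± 4.18 CPM, and Sox11, a factor of differentiating neurons, from 4795.3 ± 68.3 to 3875.4 ± 49 CPM. Their log2 fold changes were -0.30 and -0.31. The call of Btg1 was lost in 5 alternative fits, with the Y-linked covariate and when wild-type replicate 1, 2 or 3 or double knockout replicate 2 was left out in turn, at adjusted p up to 0.1 and log2 fold changes from -0.32 to -0.27. That of Sox11 was lost in 8, at adjusted p up to 0.195 and log2 fold changes from -0.32 to -0.28. These were total count scaling, the replicate block, the Y-linked covariate, and the fits that left out wild-type replicate 1, 2 or 3 or double knockout replicate 1 or 2 in turn.

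The proneural gene Neurog2 was at 60.4 ± 5.06 CPM in wild-type embryos and 51.6 ± 6.81 CPM in the knockout (SD, n = 3). It did not pass the threshold, with an edgeR adjusted p of 0.373.

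**Figure D4:**
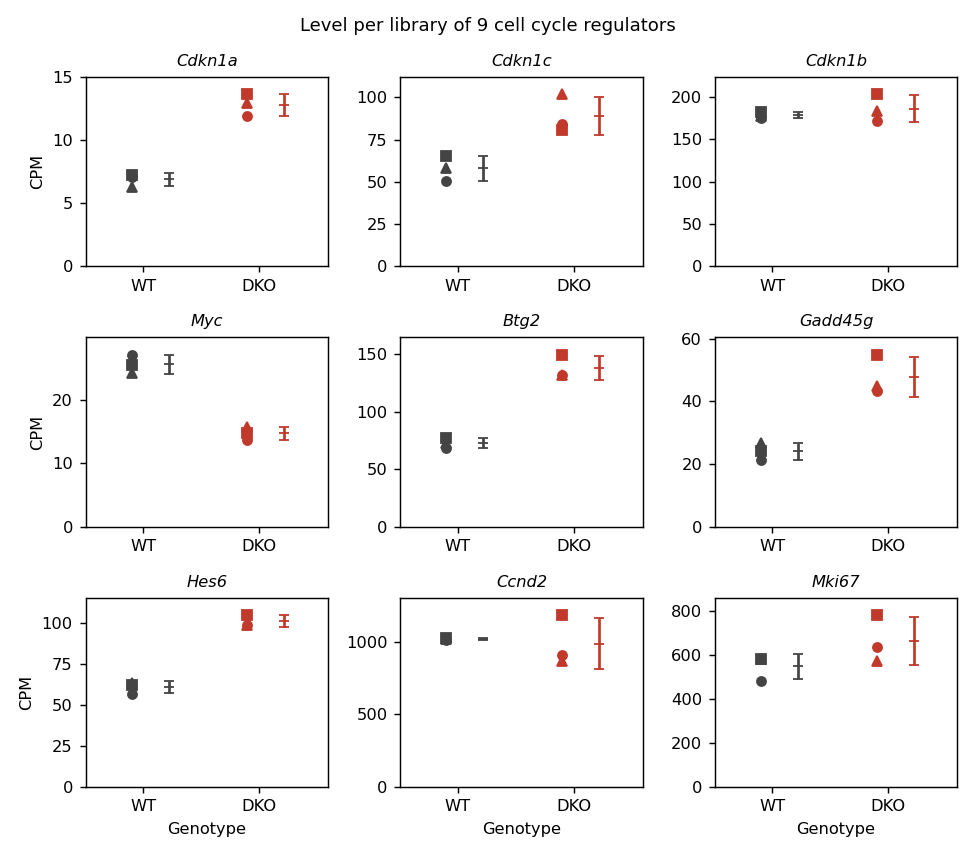
Level in CPM (vertical axes, from 0) of 9 genes in the wild type (WT, grey) and the double knockout (DKO, red). Circles, triangles and squares are replicates 1, 2 and 3, and the bars beside them are the mean and SD of 3 libraries. Cdkn1a, Cdkn1c, Btg2, Gadd45g and Hes6 are higher and Myc is lower in every DKO library than in any WT library, whereas the groups overlap for Cdkn1b, Ccnd2 and Mki67.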

How the data were processed

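RNA of ganglionic eminences was sequenced from 3 wild-type and 3 double knockout samples. The authors deposited whole-number read counts per gene for each library, unnormalised. The submitters' processing notes name featureCounts and the GRCm39 build. The aligner, the annotation release and the strand and multi-mapping settings are not given in the sources used here. Total counts were 56618090 to 70114173 per library.

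The filterByExpr function of edgeR 4.0.16 (minimum count 10, minimum total count 15) kept 23628 of 55416 genes, and TMM factors set the library scaling. Genotypes were compared with edgeR's quasi-likelihood test (prior count 0.125) in R 4.3.3, with Benjamini-Hochberg adjustment over all tested genes and no covariate. The threshold was an adjusted p under 0.05. Standard errors and 95% intervals were derived from the coefficient and the F statistic. The procedure was tested on simulated data.

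The alternatives were DESeq2 size factors, total count scaling, DESeq2 1.42.0, limma-voom (limma 3.58.1), no filter, a mean of at least 1 CPM, a replicate block, a covariate of summed Y-linked genes, an adjusted p under 0.1 and leaving out each library. Gene lengths and overlaps came from GENCODE M21 (GRCm38), matched by identifier, for all 49 genes. The build differs from that of the counts, so no coordinates are given except those of the promoter windows shown, on GRCm38.p6. Promoters came from RefSeq (GRCm38.p6).

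The 49 genes, the other lists and the tests were chosen with earlier results of these data known. Genes described in full were Dlx1, Dlx2, Mki67, Top2a, all of the 49 past the threshold, and in each class the highest and lowest by level and the 3 largest changes. In the other lists of cell cycle genes they were the genes past the threshold, up to 6. Other genes named, and the p53 half-site, were chosen after their values or letters were seen. Values of some genes are not reported here.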

Additional observations from a re-analysis of the deposited data

How the results depend on the processing

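Cdkn1a was the single cell cycle gene of the 49 past the threshold in each of the 14 alternative fits and at an adjusted p under 0.1. Over all tested genes, 634 were called, against 1162 with DESeq2 and 358 with the Y-linked covariate, and 309 to 749 in the 6 fits that left out a library each (without wild-type replicates 1 to 3, 309, 325 and 403; without double knockout replicates 1 to 3, 380, 402 and 749). The cause was not tested. Total count scaling gave the 49 genes a median log2 fold change of 0.117, while the median of all genes was 0.027. Leaving out a library moved the medians over ranges of 0.038 to 0.176 for G1 cyclins and kinases, 0.030 to 0.162 for inhibitors, 0.053 to 0.180 for E2F and RB, -0.012 to 0.147 for replication and -0.021 to 0.151 for mitosis. Over the fits without 1 library each, estimates ran from -0.049 to 0.139 for Top2a, -0.195 to 0.038 for Ccnd2, -0.003 to 0.114 for Cdkn1b, -0.058 to 0.086 for Rrm1, -0.003 to 0.147 for Gmnn and -0.103 to 0.109 for Birc5. The number of the 49 estimates below 0 went from 3 to 28 without double knockout replicate 3. Among the genes chosen for full description, direction turned in that fit for Top2a, Cdkn1b, Rrm1 (-0.058), Gmnn and Birc5 (-0.103), without wild-type replicate 1 for Rrm1 (-0.007) and Birc5 (-0.016), and for Ccnd2 without double knockout replicate 1 (0.010) or 2 (0.038).

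The labels number replicates 1 to 3 in both genotypes but do not say that the numbers pair embryos. After subtraction of group means, libraries with the same number correlated at 0.2181, 0.128 and 0.1123 over 16475 genes averaging 1 CPM or more. Genes of the Y chromosome and Xist were left out of that set, and each library correlated best with its own number. Over all 23628 tested genes the values were -0.0694, -0.0022 and 0.0018, so no pairing was assumed. With the replicate block 690 genes were called, Cdkn1a among them and no other of the 49, and the median of the 49 genes was 0.083. In that fit 7 of the 49 had an unadjusted p under 0.05 in edgeR, against 3 in the main fit.

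With 3 libraries per genotype, the intervals of 21 of the 48 genes other than Cdkn1a reached beyond a 1.25-fold difference. Reads carried no molecular identifiers as far as the labels say, and intervals cover only the spread between these libraries.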
